A study of Mus musculus with 8 samples.

Results

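Gata6 and 8 further genes known from the resident macrophages of the serous cavities, Prg4, Aspa, Icam2, Selp, F5, Fabp7, Padi4 and Lrg1, were examined in macrophages of mouse pancreas tumours. The 9 genes were picked by name because they stood lower in MHCII-high than in MHCII-low macrophages of these same arrays. Their difference between the groups is therefore given as a description, without a test. They are 9 of 27997 genes measured, and all probes carrying their names, 15 in number, were read on every array.

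The series holds 4 MHCII-high and 4 MHCII-low samples, named after their amount of MHC class II, which displays peptides to helper T cells, with 1 single-colour Agilent array per sample. Both groups came from pancreas tumours of female mice that had received implanted tumours, of the strain given as FvBn, aged 8 to 10 weeks, with the genotype entered as not provided. The series as a whole names wild-type, KPC and FLT3-CRE/LSL-YFP mice. Whether any of these alleles was carried here is not stated. Cells were sorted by flow cytometry straight into lysis buffer, and no gate other than MHCII was given in the sources used here. The label numbers 20435, 20436, 20439 and 20442 each occur once per group. What they mark is not stated, and separate animals are not stated either, so the spread between arrays may be technical.

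Resident macrophages of the peritoneal, pleural and pericardial cavities depend on Gata6, a zinc-finger transcription factor that retinoic acid induces. In the cavity they are the large cells with much Adgre1 protein and little MHCII, beside a smaller MHCII-high population that is replaced from monocytes and depends on Irf4. Loss of Gata6 from macrophages is known to lower a set of cavity genes that includes several of those described here. This is background on the cavities. Whether tumour macrophages entered from a cavity was not measured.

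Levels are log2 processed signals with the 75th percentile of each array set to 0, so a level of 1 is a signal 2-fold above that percentile. A level can be compared between arrays for the same probe, and not between probes. Values are given in the order 20435, 20436, 20439 and 20442. A probe is called detected where the scanner software marked it well above background. A value without that mark is too near background to have a meaningful order, and some such values are surrogates at the floor. Between 38755 and 42086 of 56605 probes per array were detected (68.5% to 74.4%) and no spot was saturated. Precision is limited by the number of arrays. All 8 arrays lay on 1 slide. Row 1 of the slide held MHCII-high 20436 with MHCII-low 20435, 20436 and 20439, and row 2 held the other 3 MHCII-high arrays with MHCII-low 20442.

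The oligonucleotides shown measured Selp, F5, Padi4 and Aspa. Each reads through without a stop in at least 1 frame and lies in coding sequence by what is known of the proteins. For Padi4 and Aspa the one shown is probe 2. The places, figures and correlations given below use their brighter probe 1, which is not shown. They are 60 bases long and are printed from the scanner files with their mm9 positions. The second Selp probe and the first one lie in different stretches of the transcript, so their agreement or disagreement is a check on the gene. An annotation of exons on mm9 was not used here.
Selp probe 2, chr1:166071558-166071617, plus strand: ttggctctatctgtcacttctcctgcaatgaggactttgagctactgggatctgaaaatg
Selp probe 1, chr1:166074040-166074099, plus strand: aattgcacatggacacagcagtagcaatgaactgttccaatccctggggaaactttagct
F5 probe, chr1:166149553-166149612, plus strand: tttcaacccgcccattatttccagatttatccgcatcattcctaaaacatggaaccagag
Padi4 probe 2, chr4:140315903-140315962, minus strand: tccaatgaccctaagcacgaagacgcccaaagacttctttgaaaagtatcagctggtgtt
Aspa probe 2, chr11:73119051-73119110, minus strand: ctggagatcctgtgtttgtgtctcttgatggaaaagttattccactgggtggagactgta

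All 9 genes stood lower in every MHCII-high array than in every MHCII-low array at their brightest probe. Their median log2 difference, MHCII-high minus MHCII-low, was -2.43, against 0.0067 over all genes. Each was lower by at least 1 on the log2 scale, as were 3.96% of all genes. Groups failed to overlap in that direction for 6.85% of all genes and in either direction for 14.4%. Since the genes were chosen on this contrast, nothing is read from their count against that background. Sorted by decrease over the 27997 genes, Fabp7 took place 23, Gata6 place 27, Prg4 place 33, Selp place 51, F5 place 118, Icam2 place 119, Padi4 place 226, Lrg1 place 389 and Aspa place 816. The places of Fabp7 and Gata6 rest on a floor value in MHCII-high 20442, without which their folds of 5.06 and 6.32 were under those of Prg4 (7.78) and Selp (8.25). Lower signal in such bulk samples can mean fewer cells of a type or less RNA per cell, and these cannot be told apart.

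Gata6, the transcription factor, was read by a probe on mm9 chromosome 18 at 11085494 to 11085553. Its levels were -0.71, -0.85, -1.20 and -0.66 in MHCII-low and -4.01, -2.90, -3.63 and -7.29 in MHCII-high macrophages. The MHCII-low arrays lay within 0.54 of each other, and the MHCII-high arrays spread over 4.39. The lowest MHCII-high array, 20442, was the 1 array of 8 on which this probe was not detected. The mean was -0.85 ± 0.24 (SD, n = 4) in MHCII-low and -4.46 ± 1.94 (SD, n = 4) in MHCII-high, a 12.2-fold difference on the scale of group means. Without MHCII-high 20442 the fold was 6.32. Background correction by normexp, which pulls dim signals toward a common floor, gave a log2 difference of -1.97 in place of -3.60. Direction was the same in each case, while the size rests on how the dimmest array is treated.

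A second probe carrying the Gata6 name, taken from a cDNA clone on chromosome 18 at 11057522 to 11057581, did not show this pattern. Its levels were -4.64, -7.00, -4.19 and -7.17 in MHCII-low and -2.97, -6.30, -4.48 and -4.50 in MHCII-high. It was detected on 2 of 4 MHCII-low and 3 of 4 MHCII-high arrays. The groups overlapped, and the mean was higher by 1.19 in MHCII-high. With undetected readings in both groups, this probe supports no order.

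**Figure D1:**
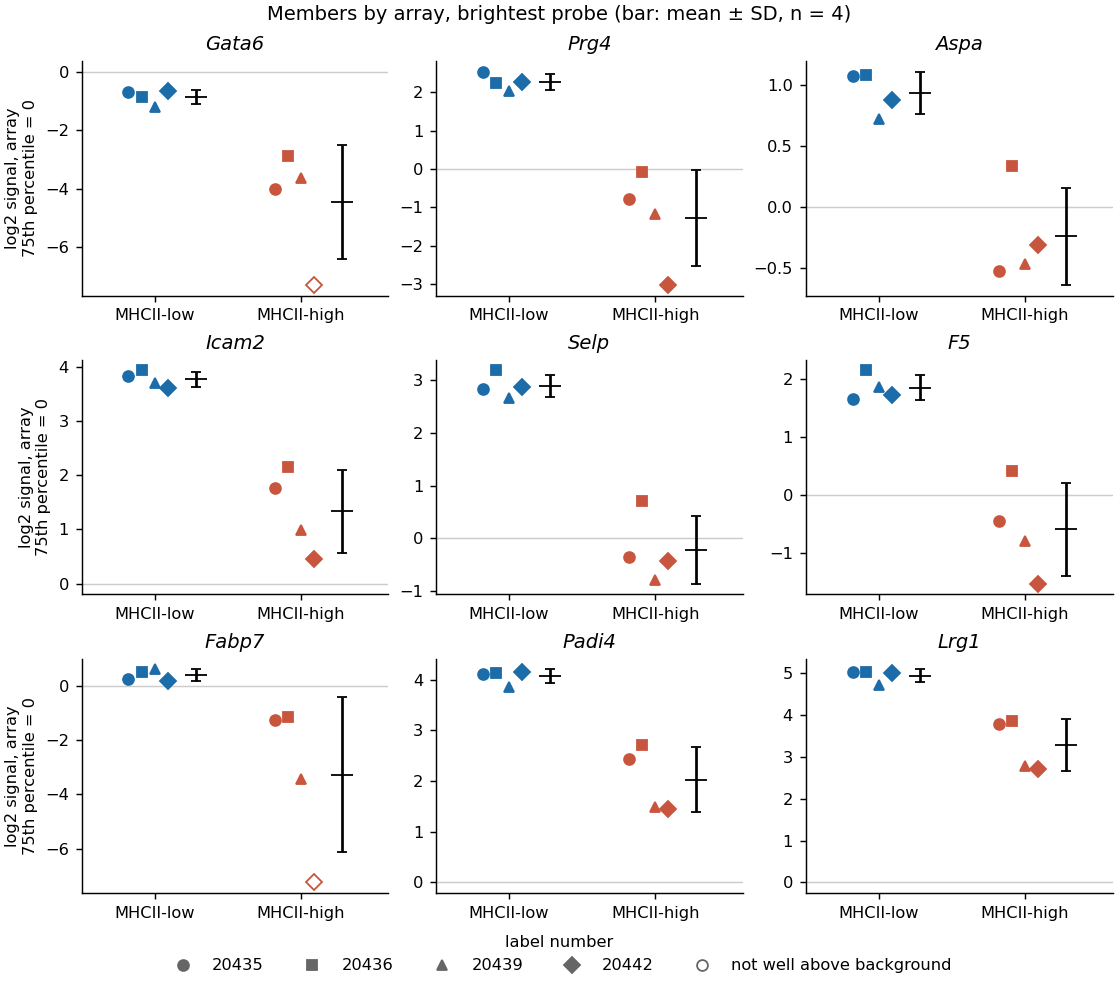
Level of each of the 9 genes at its brightest probe on each array, in log2 signal with the array's 75th percentile at 0 (y axis, a separate scale per gene), in MHCII-low (blue) and MHCII-high (red) macrophages. Marker shape gives the label number, open markers were not detected, and bars give the mean ± SD (n = 4). No MHCII-high point reaches an MHCII-low point, the MHCII-low points cluster within 0.54, and MHCII-high 20436 (square) is the highest MHCII-high point for each gene.

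Among the secreted products, Prg4 encodes proteoglycan 4, the lubricin that coats joint and serosal surfaces. Its probe on chromosome 1 at 152297067 to 152297126 read 2.54, 2.24, 2.05 and 2.27 in MHCII-low and -0.79, -0.08, -1.18 and -3.02 in MHCII-high. It was detected on every array, and the groups were separated by a gap of 2.13, the widest of the 9 genes. The means were 2.27 ± 0.20 and -1.27 ± 1.25 (SD, n = 4 each), an 11.7-fold difference. The lowest MHCII-high array was again 20442, and without it the fold was 7.78.

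F5 encodes coagulation factor V, the cofactor with which activated factor X makes thrombin. Its probe, printed above, read 1.65, 2.14, 1.86 and 1.73 in MHCII-low and -0.45, 0.41, -0.79 and -1.52 in MHCII-high. No array of one group reached the other, and the means of 1.84 ± 0.22 and -0.59 ± 0.80 (SD, n = 4 each) differed 5.40-fold. Lrg1 encodes leucine-rich alpha-2-glycoprotein, a secreted protein best known from plasma and from neutrophil granules. Its probe on chromosome 17 at 56259257 to 56259316 read 5.02, 5.04, 4.71 and 5.0 in MHCII-low against 3.79, 3.87, 2.79 and 2.71 in MHCII-high. The MHCII-high arrays fell into an upper pair, 20435 and 20436, and a lower pair, 20439 and 20442. The means of 4.94 ± 0.16 and 3.29 ± 0.63 (SD, n = 4 each) differed 3.15-fold, the second smallest of the 9 folds.

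Selp encodes P-selectin, the adhesion receptor stored in platelet and endothelial granules and also made by cavity macrophages. Its brightest probe, probe 1 above, read 2.84, 3.19, 2.67 and 2.88 in MHCII-low and -0.36, 0.70, -0.79 and -0.44 in MHCII-high. Array 20436 was the highest of both groups, and MHCII-high 20442 did not stand apart at this probe. The means of 2.89 ± 0.22 and -0.22 ± 0.64 (SD, n = 4 each) differed 8.67-fold, and without MHCII-high 20442 the fold was 8.25. Probe 2 differed 10.6-fold and a further probe at 166079660 to 166079719 differed 10.1-fold, so all 3 probes gave alike differences between group means. At probe 2 and at this further probe MHCII-high 20442 was the lowest array, at -2.44 and -2.96.

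Icam2 encodes a ligand of the leukocyte integrin LFA-1 and, as CD102, marks large cavity macrophages in flow cytometry. Its brighter probe on chromosome 11 at 106238971 to 106239030 read 3.83, 3.93, 3.71 and 3.62 in MHCII-low and 1.76, 2.16, 0.99 and 0.45 in MHCII-high. The means of 3.77 ± 0.14 and 1.34 ± 0.77 (SD, n = 4 each) differed 5.40-fold, with no overlap. Its second probe, at 106242420 to 106242479, was detected on 0 of 4 MHCII-high and 1 of 4 MHCII-low arrays and gives no fold.

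Fabp7, Aspa and Padi4 encode intracellular proteins. Fabp7, the brain-type fatty acid-binding protein, was read on chromosome 10 at 57508039 to 57508098 at 0.27, 0.52, 0.61 and 0.16 in MHCII-low and -1.27, -1.13, -3.45 and -7.24 in MHCII-high. It was not detected on MHCII-high 20442, and the MHCII-high range of 6.10 was the widest of the 9 genes. The means of 0.39 ± 0.21 and -3.27 ± 2.85 (SD, n = 4 each) differed 12.7-fold, and the fold was 5.06 without that array. Without MHCII-high 20435 or 20436 the log2 difference was -4.33 or -4.37. With normexp the log2 difference was -2.16 in place of -3.66.

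Aspa encodes aspartoacylase, which splits N-acetylaspartate into acetate and aspartate. Its brighter probe on chromosome 11 at 73129500 to 73129559 read 1.08, 1.08, 0.72 and 0.88 in MHCII-low and -0.53, 0.34, -0.47 and -0.31 in MHCII-high. The gap between the groups was 0.38, the narrowest of the 9 genes, and the means of 0.94 ± 0.17 and -0.24 ± 0.40 (SD, n = 4 each) differed 2.27-fold. Probe 2, printed above, read -0.34, 0.13, -0.15 and 0.06 in MHCII-low and -2.52, -1.73, -3.03 and -2.62 in MHCII-high, a 5.28-fold difference. Both Aspa probes had the same direction, but the size differed between them by more than 2-fold, so the fold of this gene depends on the probe.

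Padi4 encodes a peptidylarginine deiminase, which turns arginine of histones and other proteins into citrulline. Its brighter probe on chromosome 4 at 140301793 to 140301852 read 4.12, 4.13, 3.85 and 4.15 in MHCII-low and 2.44, 2.71, 1.5 and 1.45 in MHCII-high. As for Lrg1, MHCII-high 20435 and 20436 formed an upper pair and 20439 and 20442 a lower one. The means of 4.06 ± 0.14 and 2.02 ± 0.64 (SD, n = 4 each) differed 4.11-fold. Probe 2 read 3.84, 3.88, 3.20 and 3.56 against 1.28, 2.21, 0.28 and -0.21, a 6.64-fold difference.

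Of the 15 probes, 14 were detected on 4 arrays or more, and 13 of those 14 separated the groups. The exception was the second Gata6 probe. The MHCII-low arrays were tight for each gene at its brightest probe, with ranges of 0.297 to 0.541, while the MHCII-high ranges were 0.866 to 6.10 and larger in 9 of 9 genes. Between 84.2% (Aspa) and 99.5% (Fabp7) of each gene's squared deviation from its group means came from the MHCII-high arrays. For Gata6 and Fabp7 the MHCII-high range includes a floor value. How many of all genes share the wider MHCII-high spread was not counted, so it is not read as particular to these 9 genes. At the brightest probe, MHCII-high 20436 was the highest MHCII-high array in 9 of 9 genes, and MHCII-high 20442 the lowest in 7 of 9, the exceptions being Aspa and Selp. For Selp this exception did not hold at its other probes, where MHCII-high 20442 was the lowest.

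**Figure D2:**
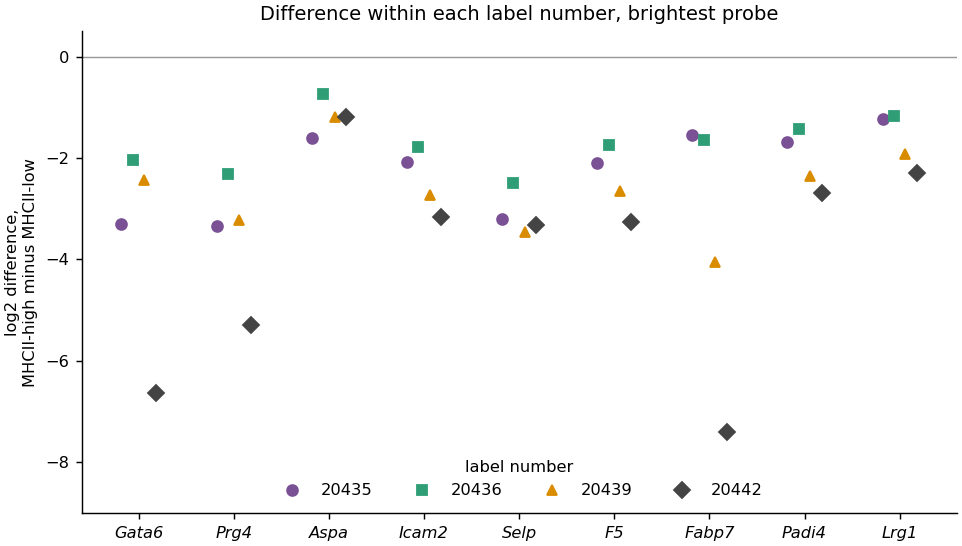
Difference MHCII-high minus MHCII-low within each label number, in log2 units (y axis), for the brightest probe of each of the 9 genes (x axis). All points lie under 0, as they must where the groups do not overlap. Number 20442 (diamond) has the largest difference for 7 genes, at -6.63 for Gata6 and -7.39 for Fabp7.

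Within label numbers, the MHCII-high array was the lower one in all 4 pairs for 9 of 9 genes. This follows from the lack of overlap between the groups and adds nothing to it. The Gata6 differences were -3.30, -2.05, -2.43 and -6.63, and the Prg4 differences -3.33, -2.32, -3.23 and -5.29. Selp at probe 1 varied less between numbers, with -3.20, -2.49, -3.46 and -3.32. At its other probes number 20442 gave the largest difference, at -4.61 and -4.31. Number 20436 gave the smallest difference for 8 of 9 genes, Fabp7 being the exception. MHCII-high 20436 was also the only MHCII-high array in row 1 of the slide. Within row 1 the difference was -1.98 for Gata6, -2.36 for Prg4 and -2.20 for Selp, and within row 2 it was -4.32, -3.93 and -3.41. In each row 1 group has a single array, and the part of the slide row in the spread among MHCII-high arrays was not tested.

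The order of the MHCII-high arrays differed between genes, as correlations with Gata6 over the 8 arrays show. Each gene was read at its brightest probe, so the Selp values hold for its probe 1 only. At the other Selp probes MHCII-high 20442 was the lowest array, and the correlations of those probes with Gata6 were not computed. With the group difference left in, r with Gata6 was 0.84 (Aspa) to 0.98 (Prg4), a range that the group difference sets. After the group means were taken off, r was 0.97 for Prg4, 0.90 for Fabp7, 0.83 for F5, 0.81 for Icam2, 0.65 for Padi4, 0.65 for Lrg1, 0.40 for Selp and 0.34 for Aspa. The points share 1 slide, their label numbers and the scaling, and 69.6% of the squared Gata6 deviation came from MHCII-high 20442, where Gata6 was not detected. Without that array r was 0.77 for Prg4, 0.12 for Fabp7, 0.60 for F5, 0.43 for Icam2, 0.45 for Padi4, 0.34 for Lrg1, 0.75 for Selp and 0.90 for Aspa. Without MHCII-high 20436 in its place, r was 0.96 for Prg4, 0.87 for Fabp7, 0.80 for F5, 0.72 for Icam2, 0.47 for Padi4, 0.49 for Lrg1, -0.23 for Selp and -0.35 for Aspa. Without MHCII-high 20439, r was 0.99 for Prg4, 0.96 for Fabp7, 0.92 for F5, 0.97 for Icam2, 0.99 for Padi4, 0.97 for Lrg1, 0.70 for Selp and 0.49 for Aspa. The order therefore rests on single MHCII-high arrays, and the sign for Selp and Aspa on MHCII-high 20436. Padi4 and Lrg1 kept close to each other, with r of 0.991 over the 8 arrays, 0.987 without MHCII-high 20442 and 0.998 without MHCII-high 20436. These are descriptions over 8 arrays.

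Over 19605 genes with a RefSeq symbol, the 10 whose levels were most like Gata6 by plain correlation were Cav2, Zfand2a, Selenok-ps1, Gm1673, Trim10, Ak1, B3glct, Flcn, Ptgir and Fbxw7, with r of 0.98 to 0.99. After the group means were taken off, the 10 most like it were Man2a1, Smim8, Cav2, Selenok-ps1, Rpain, Trp53inp2, Ptgir, F3, Tfpi and Zfand2a, with r of 0.97 to 0.98. Prg4 took place 17 by the first measure and place 13 by the second, the closest of the 8 other genes by both. Cav2, which encodes caveolin 2, had r of 0.99 and 0.98 by the 2 measures. Without MHCII-high 20442 and with group means off, r of the first 10 ran from 0.26 (Fbxw7) to 0.91 (Selenok-ps1) and of the second 10 from 0.59 (Ptgir) to 0.92 (Man2a1), with Cav2 at 0.86, so the likeness of many of them rests on that array. The log2 difference of Cav2 was -1.25, with a limma adjusted p of 0.059.

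Selp and F5 lie next to each other on chromosome 1, separated in the RefSeq annotation of GRCm38.p6 by 1 gene, the long noncoding Gm16548. Gm16548 was lower by 1.46 on the log2 scale in MHCII-high (limma adjusted p = 0.0184), a gene singled out after its values were seen. Beyond F5, Slc19a2, a thiamine transporter gene, differed by -0.32 (adjusted p = 0.263). Over the 8 arrays with group means off, Selp at its brightest probe and F5 had r of 0.78, and 0.96 without MHCII-high 20442.

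Because Gata6 is a transcription factor that binds GATA letters, the 250 bases before the start of each gene were searched in the RefSeq promoter table of GRCm38.p6, which matched 6 of the 9 genes. Those of the neighbours Selp and F5 are shown, with GATA on either strand (TATC on the strand printed) in capitals.
Selp, chr1:164115014-164115263, plus strand: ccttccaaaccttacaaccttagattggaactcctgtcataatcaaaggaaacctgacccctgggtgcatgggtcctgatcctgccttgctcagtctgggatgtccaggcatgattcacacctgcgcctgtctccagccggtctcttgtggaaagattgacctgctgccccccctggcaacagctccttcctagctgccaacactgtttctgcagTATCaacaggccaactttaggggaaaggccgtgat
F5, chr1:164151585-164151834, plus strand: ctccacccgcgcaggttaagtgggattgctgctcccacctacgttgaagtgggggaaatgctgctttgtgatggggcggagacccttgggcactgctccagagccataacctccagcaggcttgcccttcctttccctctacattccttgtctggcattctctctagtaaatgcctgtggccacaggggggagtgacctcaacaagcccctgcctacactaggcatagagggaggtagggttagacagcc
GATA, searched on both strands, occurred in 1 of the 6, Selp, and in 53.6% of 32851 promoters of the same length. The longer AGATAA and TGATAA, both of which contain GATA, occurred in 0 of the 6, and in 9.99% and 7.94% of all promoters. A match describes letters, and its absence says only that these letters are not in this window.

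Other genes known from large serous-cavity macrophages went the same way for the most part. The list was drawn up with earlier results of these arrays known and is no independent support. Of its 26 genes, all measured, 16 fell in MHCII-high and 0 rose by limma at an adjusted p of 0.05, where 4.94% of the 27997 genes passed (2.25% lower and 2.7% higher). At an unadjusted p under 0.05 the counts were 20 lower and 1 higher, and the median log2 difference was -1.40. The share of all genes at that unadjusted threshold was not counted, so no unadjusted count here or below is set against a background. A block for the slide row kept 7 of the 16 calls, and without MHCII-high 20439 the list had 10 calls. Serpinb2, for the protease inhibitor PAI-2, was 12.5-fold lower (log2 -3.65, 95% interval -4.81 to -2.48, adjusted p = 0.00795). Alox15, the lipoxygenase of arachidonic and linoleic acid, was 9.08-fold lower (log2 -3.18, adjusted p = 0.00438), with levels of 3.90, 4.42, 4.01 and 4.09 in MHCII-low and 0.72, 2.10, 0.70 and 0.18 in MHCII-high. Array 20436 was the highest of both groups for Alox15, as it was for Selp.

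Cxcl13, a chemokine for B cells, fell by 2.92 in log2 units (adjusted p = 0.0255), and this call was lost with a slide-row block (adjusted p = 0.0866). Lbp, the plasma protein that hands lipopolysaccharide to CD14, fell by 2.81 (adjusted p = 0.00045). Wnt2, a secreted Wnt ligand, fell by 3.14 (adjusted p = 0.0232), but its probe was detected on 1 of 4 MHCII-high arrays, and normexp gave -1.16. Its call was also lost with that block (adjusted p = 0.0947). Tgfb2, a transforming growth factor, had a log2 difference of -2.94 and did not pass (adjusted p = 0.084).

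For some genes of the list that did not pass, probes disagreed. The brightest probe of Ltbp1, which binds latent TGF-beta, differed by -0.02, while another read 0.67, 1.13, 1.18 and 0.85 in MHCII-low and -2.97, -1.74, -3.43 and -3.70 in MHCII-high. The brightest Garnl3 probe differed by 0.26, while another was detected on 4 of 4 MHCII-low and 0 of 4 MHCII-high arrays, at least 12.2-fold lower in MHCII-high. That bound sets each MHCII-high array at the higher of its own signal and the lowest signal of any detected probe. These 2 genes were singled out after their values were seen.

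**Figure D3:**
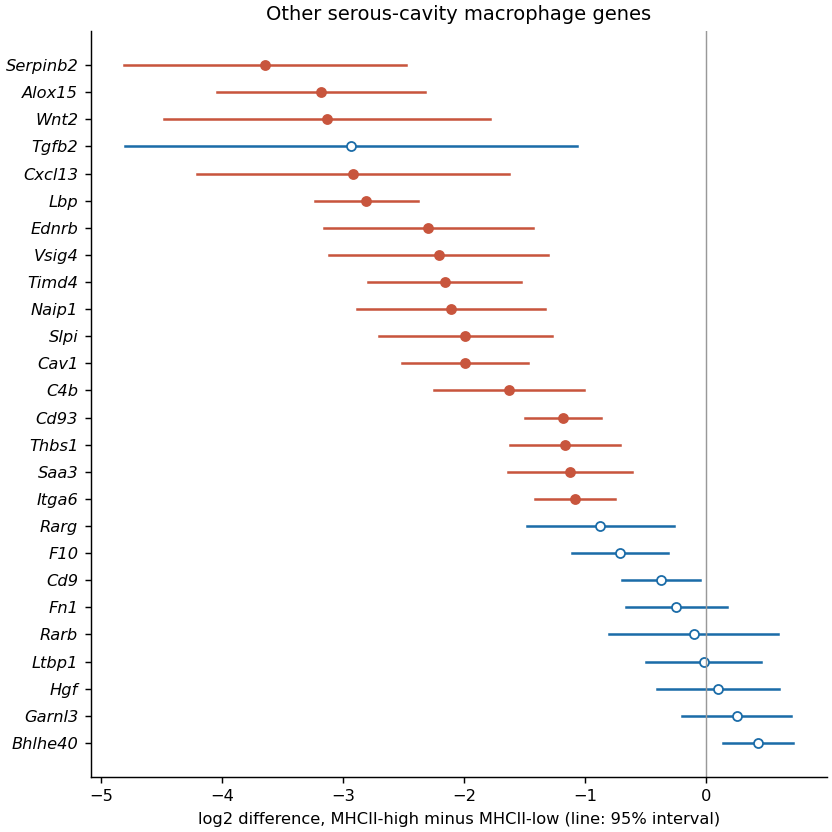
Log2 difference MHCII-high minus MHCII-low (x axis) at the brightest probe of the 26 other genes known from large serous-cavity macrophages, with 95% intervals from limma (lines). Filled red points passed an adjusted p of 0.05 and open blue points did not. The 16 genes past the threshold lie under 0, from Serpinb2 at -3.65 to Itga6 at -1.08.

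The smaller, MHCII-high cavity population is known by another set, of which 10 genes were measured. Irf4, its transcription factor, rose by 2.45 on the log2 scale (adjusted p = 0.00557), Cd209a, a C-type lectin, by 3.06 (adjusted p = 0.0012) and Itgax, CD11c, by 2.13 (adjusted p = 0.00455). Folr2, a folate receptor, fell by 1.96 (adjusted p = 0.0172, and 0.081 with a slide-row block), and the other 6 did not pass. At an unadjusted p under 0.05 the list had 4 higher and 4 lower, with a median log2 difference of 0.17. Its largest difference in either direction was that of Lyve1, a hyaluronan receptor, at -4.11 (adjusted p = 0.090, detected on 3 of 4 MHCII-high arrays), singled out after its values were seen. Irf4, Cd209a and Itgax are also expressed by dendritic cells, and Cd209a stands in the dendritic cell list as well.

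Retinoic acid induces Gata6 in cavity macrophages, so genes of retinoid receptors and metabolism were read. Of 18 measured, 3 fell and 0 rose by limma (7 and 2 at an unadjusted p under 0.05). Rxrg and Rxra, encoding retinoid X receptors, fell by 1.92 (adjusted p = 0.0284) and 0.80 (adjusted p = 0.0325), and Dhrs3, a retinal reductase, by 0.85 (adjusted p = 0.0247). None of the 3 calls held with a slide-row block, which gave an adjusted p of 0.112 for Rxrg, 0.119 for Rxra and 0.099 for Dhrs3. Cyp26a1, which breaks down retinoic acid, read -2.04, -2.13, -1.96 and -1.08 in MHCII-low and -3.60, -3.72, -7.07 and -7.26 in MHCII-high. Its groups did not overlap, but it was detected on only 2 MHCII-high arrays and the difference of -3.61 did not pass (adjusted p = 0.058). Rarb, a retinoic acid receptor, differed by -0.10 at its brightest probe and by -1.38, without overlap, at another. Other genes of the list went the opposite way. Aldh1a2 was higher in MHCII-high by 1.17, without overlap, and Cyp26b1 by 1.34, with overlap, and neither passed. Cyp26a1, Rarb, Aldh1a2 and Cyp26b1 were singled out after their values were seen. The median log2 difference of the 18 was -0.24.

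Paralogues of the 9 genes mostly did not follow them. Of the other Gata factors measured, 0 of 5 passed by limma, and 1, Gata1, had an unadjusted p under 0.05. Gata1, of the erythroid and megakaryocyte lineages, had a log2 difference of -1.56 (adjusted p = 0.099). Gata2 differed by 0.40, Gata3 by -0.21, Gata4 by -0.07 and Gata5 by 0.09. Of 7 other fatty acid-binding protein genes measured, Fabp4, the adipocyte and macrophage form, fell by 2.20 (adjusted p = 0.0123, and 0.0613 with a slide-row block) and the rest did not pass.

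Padi2 rose by 1.20 (adjusted p = 0.0184), the direction opposite to Padi4, and its call was lost with a slide-row block (adjusted p = 0.0838). Padi1 differed by 0.82 (adjusted p = 0.070), Padi3 by -0.89 (adjusted p = 0.061) and Padi6 by -2.72 (adjusted p = 0.180). Icam1, Icam4 and Icam5 differed by -0.17, -0.34 and -1.38 and did not pass, the last with an unadjusted p under 0.05. Of 6 coagulation factor genes measured beside F5, F13a1, the transglutaminase subunit that crosslinks fibrin, was 5.94-fold lower (log2 -2.57, adjusted p = 0.00573) and kept its call with a slide-row block. F3, tissue factor, differed by -1.95 (adjusted p = 0.122) and F10 by -0.71 (adjusted p = 0.058). At an unadjusted p under 0.05 by limma the 6 had 4 lower and 0 higher. Of the 6, 4 were lower without overlap between groups, as were 6.85% of all genes.

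**Figure D4:**
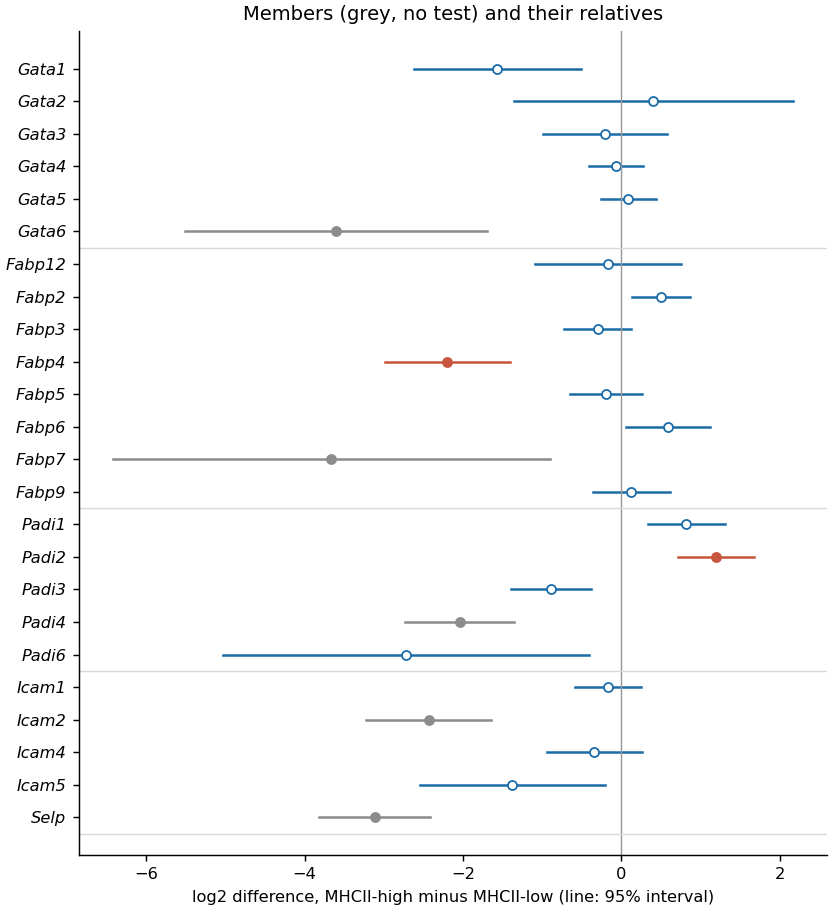
Log2 difference MHCII-high minus MHCII-low (x axis) at the brightest probe of Gata, fatty acid-binding protein, peptidylarginine deiminase and Icam genes and Selp, with 95% intervals from limma (lines). Grey points are genes chosen on this contrast and carry no test, filled red points passed an adjusted p of 0.05 (Fabp4 at -2.20 and Padi2 at 1.20) and open blue points did not.

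Markers of cell types were read beside these values. The sorted cells carried macrophage markers at high level: the linear signals of 10 markers, each relative to the 75th percentile, summed to 228 to 301 in MHCII-low and 172 to 228 in MHCII-high. Of the 10, Adgre1, which encodes a classical surface marker of mouse macrophages, fell by 1.69 (adjusted p = 0.00438) and 9 did not pass, Csf1r at -0.28 and Mertk at -0.49 among them. At an unadjusted p under 0.05 the list had 4 lower and 0 higher, and its median was -0.38. Of the 10, 4 were lower without overlap between groups, as were 6.85% of all genes. Dendritic cell markers moved opposite to the 9 genes: 8 of 10 rose (6 with a slide-row block), with a median of 3.23, and their signals summed to 25.2 to 47.0 in MHCII-high and 11.7 to 16 in MHCII-low. Flt3, the receptor that drives dendritic cell growth, rose by 4.47 (adjusted p = 0.00212). Among MHCII-high arrays the mean log2 level of the dendritic cell list was -0.11, 0.84, 1.1 and 1.39. It was lowest in 20435 and highest in 20442. At their brightest probes the 9 genes were highest in 20436 and, for 7 of 9, lowest in 20442. The part of dendritic cell RNA in the lower signal of the 9 genes was not tested.

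Selp, F5 and Padi4 are also known from platelets, endothelium or neutrophils, so those lists were read too. Of 12 megakaryocyte and platelet markers, Pf4 and Nfe2 fell by 1.36 (adjusted p = 0.00929) and 1.34 (adjusted p = 0.0124), and the rest did not pass. At an unadjusted p under 0.05 the list had 4 lower and 1 higher. Of the 12, 4 were lower without overlap between groups, as were 6.85% of all genes. With a slide-row block Nfe2 no longer passed (adjusted p = 0.0589). The linear signals of the 12 summed to 21.2 to 33.1 in MHCII-low and 10.5 to 12.6 in MHCII-high, a sum that bright probes weight most. Their median log2 difference was -0.0056. Their mean log2 levels overlapped, at -1.58 to -1.20 in MHCII-low and -1.70 to -1.24 in MHCII-high, so the list did not fall as a whole. The part of platelet RNA in the Selp and F5 values was not tested. Of 12 neutrophil markers 0 passed by limma (1 at an unadjusted p under 0.05), with signals summing to 31.6 to 40.1 in MHCII-low and 30.2 to 39.9 in MHCII-high. Of 10 endothelial markers measured 1 rose, Cldn5 by 1.77 (adjusted p = 0.0135, and 0.0552 with that block), and 0 fell, while Tek and Emcn were detected on no array.

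Mesothelial cells line the cavities, and their markers were read as well. Of 7 mesothelial markers, Bnc1, Gpm6a and Lrrn4 were detected on no array, 3 were measured and 0 passed by limma, adjusted or not, and the signals summed to 1.19 to 1.79 in MHCII-low and 1.26 to 2.89 in MHCII-high. Fabp7 is also made by glia. Of 4 glial markers measured S100b fell by 4.00 (adjusted p = 0.0232, and 0.0952 with a slide-row block) and 3 did not pass. S100b was detected on 3 of 4 MHCII-high arrays, and normexp gave -2.24. The glial signals summed to 0.545 to 1.01 in MHCII-low and 0.330 to 0.447 in MHCII-high. The part of glial RNA in the Fabp7 values was not tested.

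**Figure D5:**
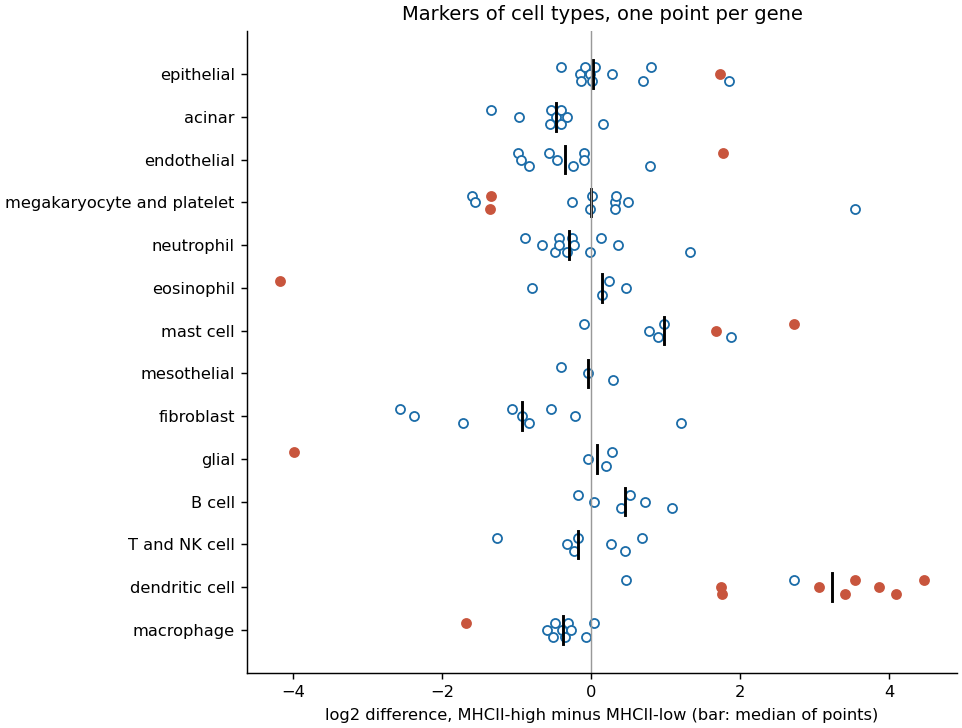
Log2 difference MHCII-high minus MHCII-low (x axis) at the brightest probe of the marker genes shown, by cell type (y axis, points spread vertically for legibility). Filled red points passed a limma adjusted p of 0.05, open blue points did not, and black bars give the median of the points. Dendritic cell markers lie to the right, with 8 of 10 past the threshold, and the median of the macrophage markers is -0.38, with Adgre1 at -1.69.

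Elsewhere among the marker lists, Ccr3, the eosinophil eotaxin receptor, fell by 4.19 (adjusted p = 0.0468), Kit and Fcer1a of mast cells rose by 2.72 (adjusted p = 0.0034) and 1.68 (adjusted p = 0.0181), and Cdh1 of epithelium rose by 1.73 (adjusted p = 0.0332). They were the only calls among 5 eosinophil, 7 mast cell and 12 epithelial genes measured. The median log2 differences of these lists were 0.14, 0.98 and 0.03, so the eosinophil list as a whole did not follow Ccr3. The calls of Ccr3, Fcer1a and Cdh1 were lost with a slide-row block, and Ccr3 was detected on 3 of 4 MHCII-high arrays. Fibroblast (9 measured), acinar (9) and T and NK cell (7) lists held 0 genes past the limma threshold, and 1, 1 and 0 at an unadjusted p under 0.05.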

How the data were processed

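The authors deposited 1 scanner file per array, written by version 11.5.1.1 of Agilent Feature Extraction (submitters' processing notes). Its processed red signal is an intensity on a linear scale, background-subtracted, per the file headers. A series table of log2 values was also deposited by the authors. Its making is not given in the sources used here, and its columns correlated with log2 processed signals of their own arrays at 0.998 to 0.9998.

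Here, 3671 control spots and 67 to 160 outlier spots per array were left out, log2 signals were set relative to the array's 75th percentile, and spots of a probe were averaged. Tested probes were well above background on at least 4 of 8 arrays, and the brightest stood for its gene. The comparison used limma 3.58.1 (lmFit, eBayes; R 4.3.3), two-sided, Benjamini-Hochberg adjusted over 27997 genes, threshold 0.05, and the code was tested on simulated data. Names came from RefSeq tables of GRCm38.p6, matching 32989 probes by main accession, and probe positions are mm9. Some list genes are not reported here. The members and lists were chosen with earlier results of these data known. Besides all 9 members, the text names the 10 genes most like Gata6 by each measure, up to 5 called genes per list with the largest change, and paralogues of the members. Alternatives were normexp (offset 50), quantile or median scaling, the deposited table, other filters, the mean of all probes, slide row or label number as a block, and each array left out.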

Additional observations from a re-analysis of the deposited data

Results flagged for a closer look

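Of 126 groups of 4 arrays examined, 7 held an array whose gap to its nearest neighbour exceeded 0.829 of the group's range, and chance gives about 1 in 20. In MHCII-low, array 20439 was lowest for Padi4 (3.85, the others 4.12 to 4.15) and for Lrg1 (4.71, the others 5.0 to 5.04). In MHCII-high, array 20436 was highest for Cxcl13 (-0.0733, the others -2.73 to -2.35) and for Lbp (-2.07, the others -2.65 to -2.56). Adgre1 was highest in MHCII-low 20442 (4.79, the others 4.44 to 4.50). Padi6 was lowest in MHCII-low 20442 (-5.0, the others -1.91 to -1.33), and Icam4 was lowest in MHCII-high 20435 (-2.49, the others -1.71 to -1.58).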

How the results depend on the processing

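Over all genes 1384 passed, against 465 with a slide row block and 555 to 1157 with 1 array left out. Without MHCII-high 20439 and 20442 the counts were 555 and 774, and without MHCII-low 20435, 20436, 20439 and 20442 they were 725, 865, 819 and 822. The label number as a replicate block gave 809. Deviations of same-numbered samples correlated at 0.188, 0.128, 0.210 and 0.0835, and each sample correlated best with its own number, a hint of pairing from the data and not from the labels. As 1 of the 4 was under 0.1, the numbers were not treated as pairs. Of the 26 other serous-cavity genes 16 passed, against 7 with the slide row block, 15 with the replicate block and 10 to 16 with 1 array left out, the lowest without MHCII-high 20439. For likeness to Gata6, the median r of the 8 genes, 0.731, ranged from 0.526 (without MHCII-high 20442) to 0.961 (without MHCII-high 20439), and was 0.606 without MHCII-high 20436. Of 30 named calls in the lists, 16 were lost with the slide row block, 3 with the replicate block (Rxra, Dhrs3 and Fcer1a, at adjusted p of 0.0942, 0.0862 and 0.0564) and 12 with some array left out, and 0 changed sign. The cause was not tested. A level under background is only a bound, which limits Gata6 and Fabp7 most.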
